A study of Saccharomyces cerevisiae and Saccharomyces paradoxus and Saccharomyces mikatae with 10 samples.

Results

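Ergosterol is the main sterol of yeast membranes, and the genes that make, store and regulate it were followed here across 9 yeast strains of 3 species. The genes were chosen by systematic name and function, with earlier results of these data known. They are 31 genes of the mevalonate pathway, of sterol synthesis and of sterol ester formation, with the regulators UPC2 and ECM22. Of these, 26 had values among the 4325 genes of the deposited table. ERG12, ERG8, ERG7, ERG27 and ARE1 were not analysed here. All 26 had a value in every strain and passed the filter on low values (a mean of at least 1 over the strains), as did 4239 genes in all.

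The 2 S. paradoxus strains were N17 and N44, both isolated from oak trees, and the single S. mikatae strain was IFO1815, from soil and decayed leaf. All 3 are labelled wild. The 6 S. cerevisiae strains comprised the wild YPS606 from an oak tree and the wild DBVPG1788 from soil, and 4 that are called non-wild here: a fruit juice strain (DBVPG6040), a distillery strain (Y9), a wine strain (BC187) and a strain with the clinical label (YJM145). Each was grown from 1 colony in a synthetic oak exudate medium that holds sucrose, fructose and glucose, and polyadenylated RNA was sequenced from mid-log cells. Each strain had 1 value per gene, YPS606 from 2 libraries that the authors analysed together, so strains serve as the replicates of a species and an error covers strain, culture and library at once. Values are taken to be in FPKM, a unit inferred from the files and the processing tools: fragments scaled by gene length and by sequencing depth, so levels of different genes can be compared within a strain. They are relative to the other RNA of the culture, and RNA per cell was not measured. The reference used for reads of S. paradoxus and S. mikatae is not given in the sources used here. S. mikatae had 423 of 4260 genes listed at 0, against 1 to 5 in each other strain, and was therefore kept out of the tests.

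The pathway starts with the mevalonate steps, which build isoprenoid units from acetyl-CoA, and joins these units into farnesyl diphosphate and then squalene. The late steps oxidise and close squalene into lanosterol and remodel it into ergosterol. They use molecular oxygen and haem, which is why sterol synthesis is tied to oxygen supply in S. cerevisiae. Upc2 and Ecm22 are zinc-cluster transcription factors that bind a short sterol regulatory element, TCGTATA, in front of several ERG genes. Both activate these genes, and Upc2 raises their transcription when sterols are scarce.

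That element was looked for as the exact letters TCGTATA, on either strand, in the 500 bases before the start codon of the S. cerevisiae reference genome (R64, RefSeq), the build named in the submitters' processing notes. It was present for 8 of the 26 genes (30.8%), against 280 of the 4204 tested genes with a full window (6.66%). The 8 were 1 of 5 early (mevalonate) genes, 5 of 10 late genes (after squalene), and 2 partner proteins of the late enzymes. The stretches of 5 of them are shown because the element is where the pathway's own regulators bind: the 3 genes with 2 matches each, 1 further late enzyme (ERG2) and 1 partner protein (ERG28). They are written in the direction of the gene, with TCGTATA or its reverse complement TATACGA in capitals. The stretch of ERG13 lies at chrXIII:20683-20809 on the minus strand, ERG25 at chrVII:610064-610147 on the plus strand, ERG2 at chrXIII:667292-667418 on the plus strand, ERG3 at chrXII:253475-253601 on the plus strand and ERG28 at chrV:238228-238354 on the minus strand.
ERG13: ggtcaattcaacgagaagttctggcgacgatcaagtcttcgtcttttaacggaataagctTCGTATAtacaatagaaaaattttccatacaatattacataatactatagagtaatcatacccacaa
ERG25: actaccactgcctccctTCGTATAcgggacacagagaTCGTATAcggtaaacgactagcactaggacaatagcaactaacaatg
ERG2: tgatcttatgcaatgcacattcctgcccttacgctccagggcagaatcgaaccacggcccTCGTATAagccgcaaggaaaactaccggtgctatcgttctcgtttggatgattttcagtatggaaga
ERG3: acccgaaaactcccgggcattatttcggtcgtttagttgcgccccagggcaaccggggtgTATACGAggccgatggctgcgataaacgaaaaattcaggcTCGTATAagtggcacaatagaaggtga
ERG28: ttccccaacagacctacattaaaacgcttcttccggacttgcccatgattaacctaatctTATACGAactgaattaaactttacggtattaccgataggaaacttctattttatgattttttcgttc

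ERG13 and ERG3 held 2 matches each on opposite strands and ERG25 held 2 on the same strand; the stretch of ERG13 shows 1 of its matches. ERG1, ERG6 and CYB5 were the other 3 carriers. The median S. cerevisiae level was 289 FPKM over the 8 carriers and 147 FPKM over the other 18 members. These are sequences of the reference strain and not of the 9 strains, and a match is a run of letters, not a measured binding site.

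Levels differed widely along the pathway. The lowest were the regulators: the S. cerevisiae medians were 14.9 FPKM for UPC2 (YDR213W) and 23.5 FPKM for ECM22 (YLR228C). BTS1 (YPL069C), the geranylgeranyl diphosphate synthase that branches off the pathway, was as low, at 23.3 FPKM. The highest were ERG25 (YGR060W), the C-4 sterol methyl oxidase, at 638 FPKM, and ERG20 (YJL167W), farnesyl diphosphate synthase, at 566 FPKM. All 26 genes together took between 1.47% and 1.58% of the summed values in the S. paradoxus strains, 2.06% in S. mikatae, and between 1.19% (Y9) and 1.68% (BC187) in S. cerevisiae.

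**Figure D1:**
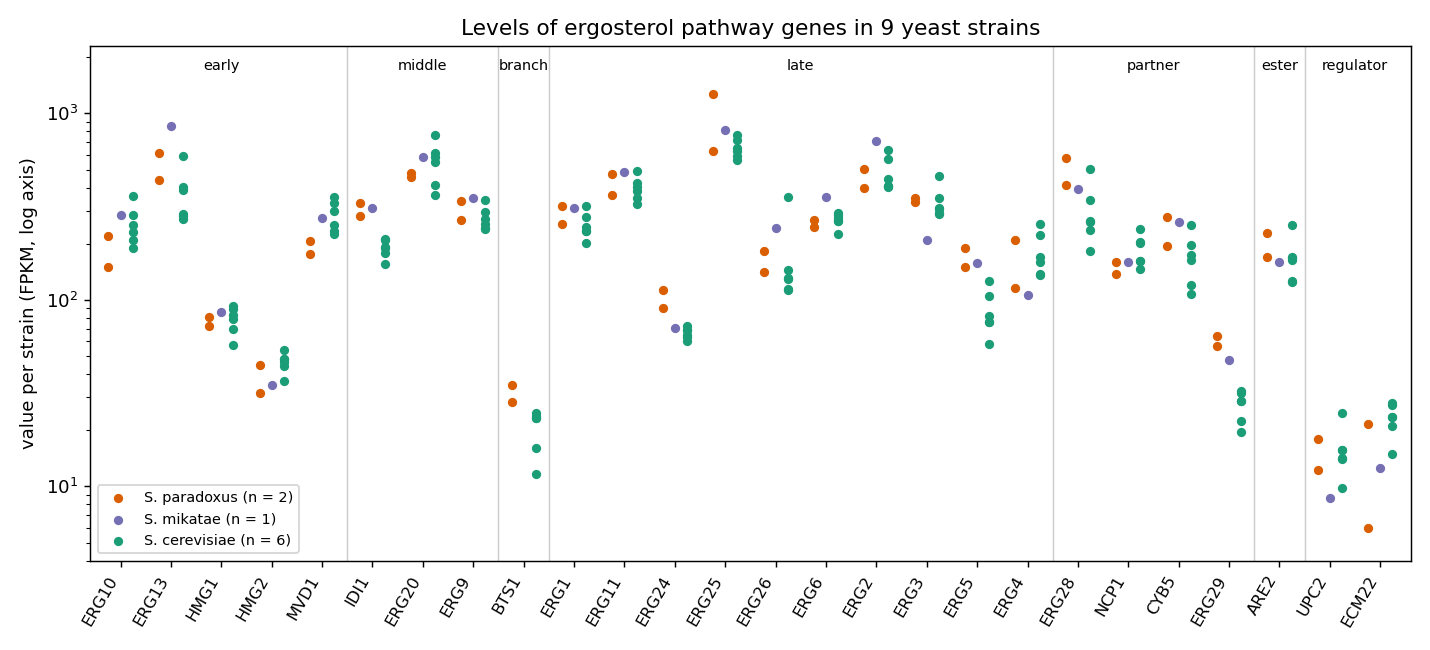
Level of each of the 26 genes in FPKM (log axis), with 1 point per strain, genes ordered by step class and species by colour. The regulators and BTS1 sit at the bottom and ERG20, ERG25 and ERG2 near the top in all species; BTS1 of S. mikatae, listed at 0, is not drawn.

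The first comparison asks which genes differ between species, with S. paradoxus set against S. cerevisiae. ERG29, ERG5, IDI1 and ERG24 were higher in S. paradoxus and no member was lower (limma on log2(FPKM + 1), Benjamini-Hochberg adjusted p under 0.05 over 4239 genes). These are 4 of 26 (15.4%), where 21.7% of all genes tested were called higher. For lower calls the counts were 0 of 26 against 2.41% of all genes. The share of members called was thus not above that of genes in general. Over all genes tested the values of S. paradoxus were shifted upward, by a median of 0.32 on the log2 scale. The median of the 26 members was 0.088, and 9 of them lay above the all-gene median. Of the 1022 genes called 920 were higher, against 332 of 630 (52.7%) after median centring and 336 of 656 (51.2%) after quantile normalisation, which remove the shift. ERG29 was then the only member called higher, where 7.83% of all genes were after median centring and 7.93% after quantile normalisation. MVD1 was called lower after median centring, as were 7.03% of all genes. Both S. paradoxus strains are wild. With wild as a covariate ERG5 and ERG29 remained called, where 8.89% of all genes were called higher and 0.802% lower. Among the 4 wild strains of both species no member was called, where 3.96% of all genes were called higher and 0.472% lower. The shares of all genes fell too, so nothing is read about the members from these losses. The log2 differences among wild strains were 1.33 for ERG5, 1.30 for ERG29, 0.74 for IDI1 and 0.64 for ERG24.

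ERG29 (YMR134W), an endoplasmic reticulum protein implicated in the methyl oxidase step, had 63.7 FPKM in N17 and 56.4 in N44. The S. cerevisiae strains ranged from 19.6 (YPS606) over a median of 28.8 to 32.5 (DBVPG6040). Both S. paradoxus strains were above every S. cerevisiae strain, and the means differed by 1.13 on the log2 scale (SE 0.22, limma adjusted p = 0.00678). Without N17 the limma adjusted p was 0.0562 and the log2 difference 1.04, and among the wild strains alone the limma adjusted p was 0.0693.

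ERG5 (YMR015C), the cytochrome P450 that introduces the C-22 double bond, had 189 FPKM in N17 and 149.9 in N44. In S. cerevisiae it ranged from 57.8 (YPS606) over a median of 79.1 to 126 (DBVPG6040). The groups did not overlap, and the log2 difference was 0.99 (SE 0.28, limma adjusted p = 0.0291). The call was lost without N17 (limma adjusted p = 0.170), N44 (0.0660) or BC187 (0.0544), and the log2 difference remained between 0.82 and 1.16 in these 3 settings.

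IDI1 (YPL117C), isopentenyl diphosphate isomerase, which makes the allylic unit for chain building, had 280.0 FPKM in N17 and 331 in N44. The lowest S. cerevisiae value was 155 (YPS606), the median 191 and the highest 213 (DBVPG1788). Again both S. paradoxus strains were above every S. cerevisiae strain (log2 difference 0.69, SE 0.20, limma adjusted p = 0.0317). Its call was lost when N17, N44, YPS606, Y9, BC187 or YJM145 was left out, with limma adjusted p between 0.0519 and 0.146 and log2 differences between 0.57 and 0.81. After median centring the log2 difference was 0.35 (limma adjusted p = 0.200).

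ERG24 (YNL280C), the C-14 sterol reductase, had 90.1 FPKM in N17 and 113 in N44, against a range in S. cerevisiae from 60.2 (YPS606) over a median of 67.0 to 72.7 (Y9). The 2 groups did not overlap (log2 difference 0.60, SE 0.18, limma adjusted p = 0.0341). Without N17, N44, YPS606, BC187 or YJM145 its limma adjusted p lay between 0.0535 and 0.193, with log2 differences between 0.43 and 0.76. The call was also lost with S. mikatae added (log2 difference 0.43, limma adjusted p = 0.145) and after median centring (0.26, limma adjusted p = 0.339). Its divergent neighbour PRM1, a gene of mating cell fusion that lies 505 bases away in the reference, had 28.2 and 20.3 FPKM in N17 and N44, and a mean of 5.60 FPKM in S. cerevisiae. PRM1 was chosen after its values were seen, and its part in the ERG24 difference was not tested.

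None of these 4 genes held TCGTATA in the window searched. Of the 8 that did, 0 were called between the species, where 21.7% of all genes were called higher and 2.41% lower, and with 8 genes nothing is read from that count. Their log2 differences ran from −0.075 (ERG2) to 0.78 (ERG28). Non-overlap of the groups gave a similar count: in 5 of 26 members both S. paradoxus strains were above the S. cerevisiae range (19.2%, against 30.6% of all genes). The fifth was BTS1, at 28.5 FPKM in N17 and 35.1 in N44, against 11.7 to 24.9 in S. cerevisiae (limma adjusted p = 0.120). In 1 of 26, MVD1, both were below that range (3.85%, against 5.33% of all genes).

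**Figure D2:**
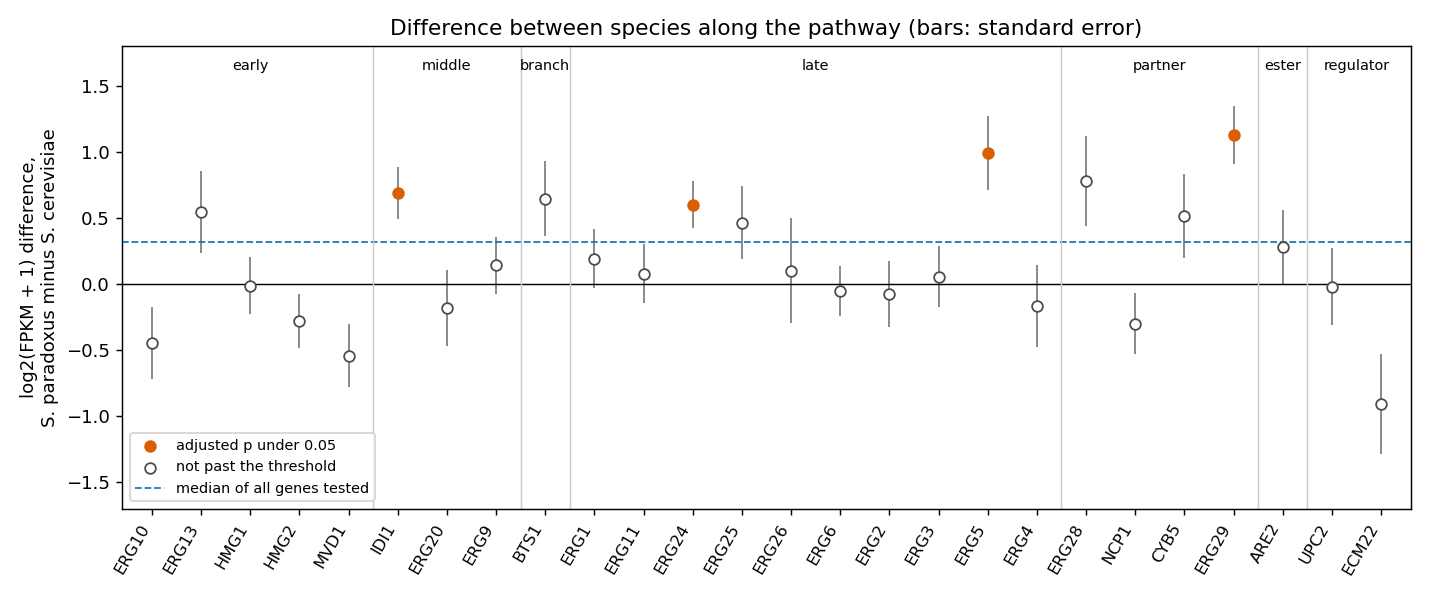
Log2(FPKM + 1) difference of S. paradoxus minus S. cerevisiae for each gene, with its standard error, in pathway order; filled points passed the limma threshold and the dashed line marks the all-gene median of 0.32. ERG29, ERG5, IDI1 and ERG24 are filled, and 4 of the 5 early genes lie below 0.

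Early and late steps were set side by side. Of the 5 early genes 1 had a positive difference and the median was −0.28; of the 10 late genes 7 had a positive difference and the median was 0.088. Among all genes tested 3058 of 4239 had a positive difference, and 3 of the 10 late genes and 1 of the 5 early genes lay above the all-gene median. After median centring the late median was −0.25 and the early median −0.62. MVD1 (YNR043W), mevalonate diphosphate decarboxylase, had 177 FPKM in N17 and 207 in N44, against 226 to 357 in S. cerevisiae, that is −0.54 on the log2 scale (SE 0.24, limma adjusted p = 0.118). ERG10 (YPL028W), which condenses 2 acetyl-CoA units, differed by −0.45 (limma adjusted p = 0.251). The exception was ERG13 (YML126C), HMG-CoA synthase, at 0.54 (SE 0.31, limma adjusted p = 0.227). None of the early genes passed the threshold.

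For each strain the mean log2 level of the late genes was set against that of the early genes. Late minus early was 1.03 in N17 and 0.81 in N44, 0.55 in S. mikatae IFO1815, and between 0.32 (DBVPG1788) and 0.65 (Y9) in S. cerevisiae. The means were 0.92 ± 0.16 (SD, n = 2) in S. paradoxus and 0.56 ± 0.13 (SD, n = 6) in S. cerevisiae, a gap of 0.37 that was given no test because the genes were chosen. Both S. paradoxus strains were above all S. cerevisiae strains on this scale, and S. mikatae fell inside their range. With medians over genes in place of means, chosen after the data were seen, the values were 0.66 in N17 and 0.79 in N44, against −0.48 (DBVPG1788) to 0.30 (YPS606) in S. cerevisiae, and the gap was 0.64. By summed FPKM the late genes exceeded the early ones 3.33-fold in N17 and 3.12-fold in N44, against 2.43-fold to 3.20-fold in S. cerevisiae, so on that scale the groups overlapped.

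**Figure D3:**
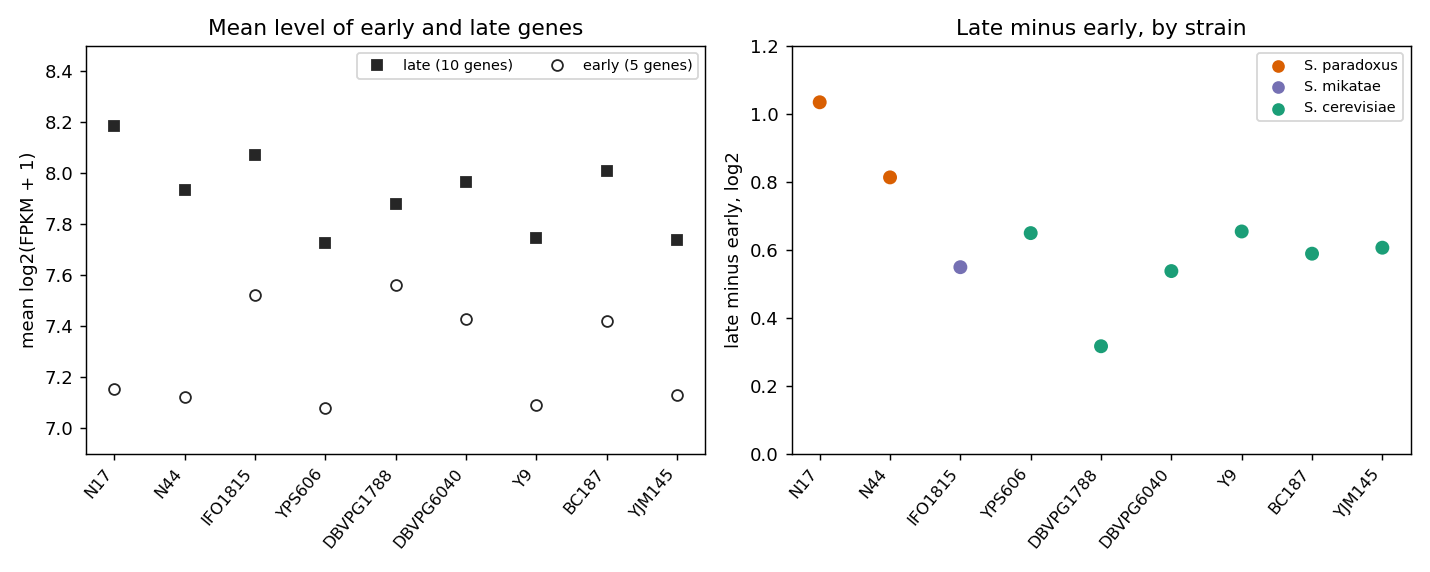
Left, mean log2(FPKM + 1) of the 10 late and 5 early genes in each strain (the axis does not start at 0); right, their difference by strain and species. N17 and N44 have differences of 1.03 and 0.81, above the S. cerevisiae range of 0.32 to 0.65.

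The 2 forms of HMG-CoA reductase, the rate-limiting enzyme of the mevalonate steps, come from the paralogs HMG1 and HMG2. HMG1 (YML075C) had 72.4 FPKM in N17 and 81.4 in N44, and from 57.6 (YPS606) over a median of 81.2 to 92.5 (DBVPG1788) in S. cerevisiae. HMG2 (YLR450W) had 31.7 FPKM in N17 and 44.8 in N44, and from 36.5 (DBVPG6040) over a median of 47.2 to 54.2 (Y9) in S. cerevisiae. HMG1 was the higher of the pair in all 9 strains, including S. mikatae with 86.1 FPKM for HMG1 and 34.9 for HMG2. Neither passed the threshold between the species (limma adjusted p = 0.970 for HMG1 and 0.342 for HMG2). How reads shared between paralogs were divided is not given in the sources used here, so these levels are uncertain to that extent.

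The regulators are paralogs too. UPC2 had 12.3 FPKM in N17 and 18.0 in N44, 8.67 in IFO1815, and from 9.82 (DBVPG6040) over a median of 14.9 to 24.6 (DBVPG1788) in S. cerevisiae. ECM22 had 6.0 FPKM in N17 and 21.6 in N44, 12.6 in IFO1815, and from 14.9 (DBVPG6040) over a median of 23.5 to 28.0 (Y9) in S. cerevisiae. N17 was thus far below every other strain in ECM22 and N44 was not. The species differences were −0.020 for UPC2 (SE 0.29, limma adjusted p = 0.965) and −0.91 for ECM22 (SE 0.38, limma adjusted p = 0.108). ECM22 passed the threshold when N44 was left out. Among the S. cerevisiae strains DBVPG6040 was lowest in both regulators.

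N17 and N44 were next compared with each other, with 1 strain each and so no test. By a difference of 1.5-fold on FPKM + 1, N17 was higher in 2 of 26 members (7.69%, against 19.0% of all genes) and lower in 1 (3.85%, against 12.3%). The higher ones were ERG25, with 1263 FPKM in N17 and 632 in N44, and ERG4 (YGL012W), the last reductase of the pathway, with 209.7 and 115 FPKM. The lower one was ECM22. The median absolute log2 difference between the strains was 0.34 over the members and 0.38 over all genes.

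In S. mikatae, with 1 strain, values were set against the S. cerevisiae range without a test. BTS1 was listed at 0, as were 22.3% of the genes on its chromosome. Of the 26 members, 9 were above the S. cerevisiae range (34.6%, against 20.4% of all genes) and 5 were below it without being at 0 (19.2%, against 29.2%). After median centring or quantile normalisation the counts were 13 above and 2 below. Of all genes tested 32.2% were then above and 21.8% below without being at 0 after median centring, and 38.1% and 18.4% after quantile normalisation. ERG13 had 852 FPKM in IFO1815 against 272 to 592 in S. cerevisiae. ERG2 (YMR202W), the C-8 sterol isomerase, had 715 FPKM against 404 to 637. ERG6 (YML008C), the sterol C-24 methyltransferase, had 355 FPKM against 226 to 291. IDI1 (312 FPKM), ERG5 (158 FPKM) and ERG29 (47.5 FPKM) were also above the S. cerevisiae range, as they were in S. paradoxus, while ERG24 (70.8 FPKM) was inside it. Both species were set against the same 6 S. cerevisiae strains, so these results are not independent. The share of all genes above the range in both species was not counted. Below the range were HMG2, UPC2, ECM22, ERG3 (YLR056W, the C-5 desaturase, 210.0 FPKM against 289 to 463) and ERG4 (106 FPKM against 136 to 255). All 5 lie on chromosomes where 13.2% to 23.7% of the genes were listed at 0 in IFO1815, and 7 of the 9 above the range lie on chromosomes with at most 0.490% at 0 (the others are IDI1 and ERG25). Inside the range, ERG10, ERG20, ERG1, ERG26 and ERG28 lie on chromosomes with 9.84% to 23.7% at 0. HMG1, MVD1, ERG11, ERG24, NCP1 and ARE2, also inside it, lie on chromosomes with at most 0.490% at 0. The part of these chromosomes in the result was not tested.

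Within S. cerevisiae, wild was compared with non-wild, 2 strains against 4. No member passed, nor did any of the 4239 genes (0% called; limma). At an unadjusted limma p under 0.05 there were 55 of the 4239 genes and 0 of the 26 members. A cut of 0.05 would by itself give more genes than that, so nothing is read from these counts. The log2 differences of members lay between −0.51 (ERG5) and 0.43 (UPC2). ERG5 averaged 66.9 ± 13.0 FPKM in the wild strains (SD, n = 2) and 97.2 ± 23.0 FPKM in the non-wild strains (SD, n = 4). UPC2 averaged 19.3 ± 7.48 FPKM in the wild strains (SD, n = 2) and 13.8 ± 2.75 FPKM in the non-wild strains (SD, n = 4).

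The members also differed in how much they varied among the 6 S. cerevisiae strains. The median SD on the log2 scale was 0.28 over the members and 0.29 over all genes tested, so the typical member varied about as much as the typical gene. The late genes had a median SD of 0.24 and the early genes 0.28. Steadiest were ERG24 (SD 0.097, 60.2 to 72.7 FPKM), ERG6 (SD 0.13, 226 to 291 FPKM around a median of 269.9) and IDI1 (SD 0.17). ERG6 had 245 FPKM in N17 and 268 in N44. Only 1.82% of all genes tested had a smaller SD than ERG24.

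The most variable member was ERG26 (YGL001C), the C-3 sterol dehydrogenase that acts with Erg25 and Erg27 in removing the C-4 methyl groups. It had 358 FPKM in BC187, against 113 to 145 in the other 5 S. cerevisiae strains, and the median of all 6 was 131. It had 184 FPKM in N17, 141 in N44 and 243 in IFO1815. BC187 was 2.75-fold above the median of the other S. cerevisiae strains. The neighbouring genes were not raised alike: ERP6 had 29.8 FPKM in BC187 against 27.0 to 40.1 in the other 5, and EFM5 had 102 against 71.1 to 121. ERG28 (YER044C), a scaffold that holds the C-4 demethylation enzymes together, was second, with 411 FPKM in N17, 577 in N44 and 395 in IFO1815, and with 183 (DBVPG6040) over a median of 262 to 503 (BC187) in S. cerevisiae. CYB5 (YNL111C), cytochrome b5, which passes electrons to several late enzymes, came next. It had 278 FPKM in N17, 194 in N44 and 261 in IFO1815, and from 108 (YPS606) over a median of 169 to 253 (DBVPG6040) in S. cerevisiae.

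The strains had different profiles along the pathway. BC187 was the highest of the 6 S. cerevisiae strains in 7 of 26 members (26.9%), and in 9.41% of all genes tested. Besides ERG26 and ERG28 these were ERG20, ERG9 (YHR190W, squalene synthase), ERG1 (YGR175C, squalene epoxidase), ERG25 and ARE2. ARE2 (YNR019W), the main sterol acyltransferase, had 253 FPKM in BC187, against 124 to 170.0 in the other 5, and the median of all 6 was 166. N17 had 170.5 FPKM, N44 229.7 and IFO1815 159.6. DBVPG1788 was also highest in 7 members (26.9%), close to its 23.7% of all genes, and 3 of its 7 were early genes. DBVPG6040 was highest in 6 members (23.1%), among them ERG13 (592 FPKM), ERG3 (463 FPKM), ERG5 and CYB5. That share was below its 37.0% of all 4239 genes. DBVPG6040 was lowest in 5 members (19.2%), among them HMG2, ERG26 and ERG28, and in 10.03% of all genes. Y9 was lowest in 8 members (30.8%), and in 13.9% of all genes. These counts are descriptions of 1 culture per strain.

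**Figure D4:**
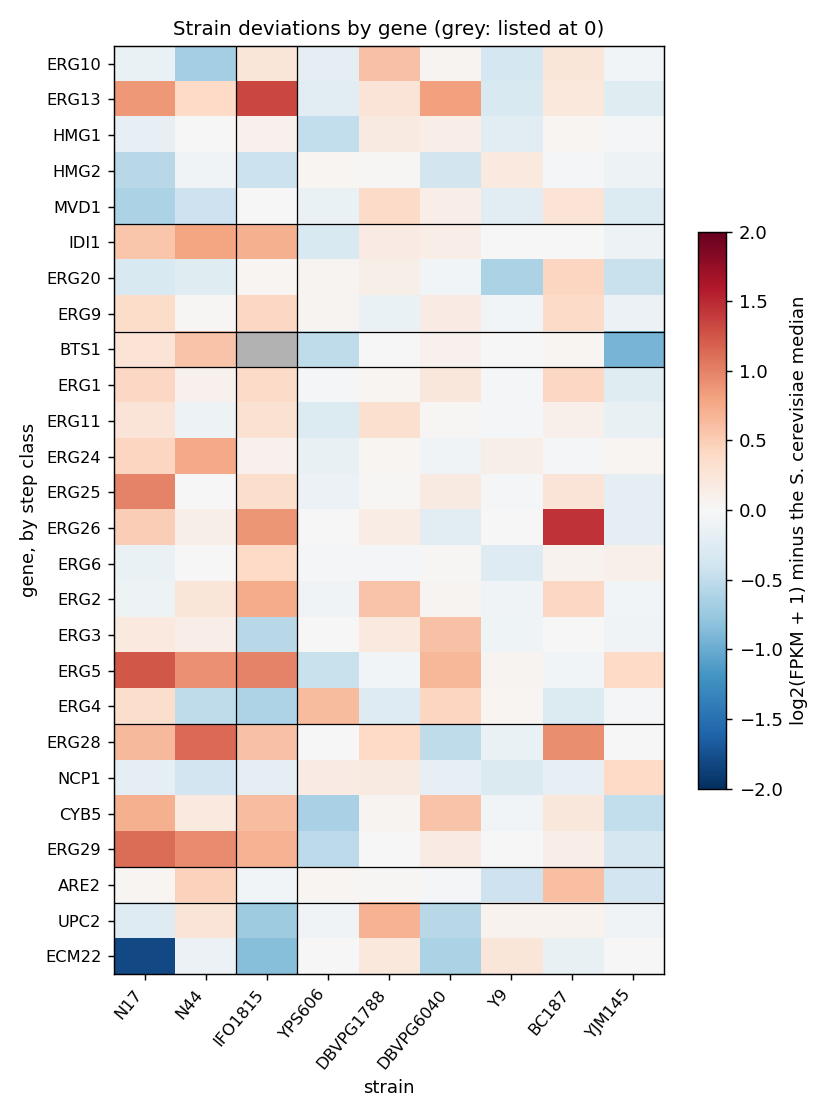
Log2(FPKM + 1) of each gene and strain minus the median of the 6 S. cerevisiae strains; red is higher, blue lower, grey listed at 0. Among the larger deviations are ERG26 in BC187, ERG13 in IFO1815, ERG29 in both S. paradoxus strains and the low ECM22 of N17. Others are ERG5 in N17, N44 and IFO1815, ERG28 in N44 and ERG25 in N17.

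How far members moved together was described by their correlation across the 6 S. cerevisiae strains. The median Pearson r on the log2 scale was 0.60 over the 10 pairs of early genes, 0.38 over the 50 pairs of an early with a late gene and 0.19 over the 45 pairs of late genes, against 0.15 over all pairs of tested genes. All values of a strain come from 1 column and share its depth and scaling, and with 6 points per pair these are descriptions only.

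The remaining members showed no call between the species. ERG11 (YHR007C), the lanosterol demethylase that azole drugs target, had 472 FPKM in N17 and 365 in N44, against 327 to 492 in S. cerevisiae. NCP1 (YHR042W), the reductase that feeds electrons to the P450 enzymes, had 159 and 138 FPKM against 147 to 238. ERG20, ERG9, ERG1, ERG25, ERG6, ERG2, ERG3, ERG4 and ARE2 had log2 differences between −0.18 and 0.46.

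Beyond the members, 38 of 51 listed genes of sterol transport and storage, other isoprenoid branches, sterol and oxygen regulation and HMG-CoA reductase turnover were tested. Of these 9 were higher and 1 lower in S. paradoxus than in S. cerevisiae (limma adjusted p under 0.05), where 21.7% of all genes tested were called higher and 2.41% lower, so the count was near the background. Their median log2 difference was 0.31, close to the 0.32 of all genes. In sterol transport and storage 5 of 17 were higher, against 21.7% of all genes: ARV1, YSP2, SAY1, HES1 and YEH2. ARV1, a lipid homeostasis protein of the endoplasmic reticulum, had 41.1 FPKM in N17 and 38.6 in N44, against 13.9 to 24.8 in S. cerevisiae (log2 difference 1.14, limma adjusted p = 0.00599). YSP2, which moves sterol at membrane contact sites, had 24.6 and 33.8 FPKM against 10.8 to 17.2 (log2 difference 1.03, limma adjusted p = 0.0099). SAY1, a sterol deacetylase, had 29.7 and 31.9 FPKM against 14.8 to 20.1 (limma adjusted p = 0.0099). YEH2, a steryl ester hydrolase, had 39.3 and 40.0 FPKM against 23.8 to 30.5, and HES1, an oxysterol-binding homolog, had 3.69 and 2.15 FPKM against 0.302 to 1.23.

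In the other isoprenoid branches 3 of 10 were higher, against 21.7% of all genes, and 1 was lower, against 2.41%. Counts this small are descriptions. RAM1, the beta subunit of protein farnesyltransferase, had 49.9 FPKM in N17 and 28.7 in N44, against 11.7 to 18.2 in S. cerevisiae (log2 difference 1.38, limma adjusted p = 0.00459). CDC43, the beta subunit of the enzyme that attaches geranylgeranyl groups to small GTPases, was lower, with 23.5 and 23.2 FPKM against 29.2 to 48.1 (log2 difference −0.71, limma adjusted p = 0.0305). SRT1, a cis-prenyltransferase, had 12.0 FPKM in N17 and 2.46 in N44, against 0.265 to 0.841 in S. cerevisiae. COX10, which farnesylates haem, averaged 67.3 ± 21.6 FPKM in S. paradoxus (SD, n = 2) and 34.0 ± 6.99 FPKM in S. cerevisiae (SD, n = 6). In HMG-CoA reductase turnover 1 of 9 was higher, against 21.7% of all genes: NSG2, which stabilises Hmg2, with 198.5 and 148 FPKM against 78.6 to 118 (limma adjusted p = 0.0273). Neither of the 2 tested regulators passed. Of all 38 genes, 1 was called among the wild strains alone, where 3.96% of all genes were called higher and 0.472% lower. With S. mikatae added 4 were called, where 4.81% of all genes were called higher and 1.44% lower.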

How the data were processed

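Messenger RNA of 9 strains was sequenced, and the deposited series table, which equals the per-strain files in all 4325 rows, was used. cutadapt, TopHat, Cufflinks and the R64 build are named per the submitters' processing notes. The unit of the deposited values was inferred to be FPKM: low values times R64 gene length were whole multiples of 1 step (tolerance 0.05) for 93.1% to 96.5% of those used in the S. cerevisiae strains. The steps imply library totals between 57.9 M (Y9) and 72.3 M (BC187), with 153 M for YPS606, whose 2 libraries were joined; depth in the other species is unknown. The smallest implied count of a member in the S. cerevisiae strains was 777 (BTS1 in YJM145), so counting error was small in those strains. Counts in S. paradoxus and S. mikatae could not be implied in this way. The labels give no batch.

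Genes with a value in every strain (4260) and a mean of at least 1 were tested on log2(FPKM + 1) with limma 3.58.1 (lmFit, eBayes with trend) in R 4.3.3, two-sided, with Benjamini-Hochberg adjustment over all 4239 and a threshold of 0.05. Fold changes are on the log2(FPKM + 1) scale, on which changes of low genes look too small. S. paradoxus against S. cerevisiae used 8 strains, wild against non-wild the 6 S. cerevisiae strains. The fit was tested on simulated data, in which all strains were drawn from each gene's S. cerevisiae mean and SD, independently between genes. Those data held no general upward shift of S. paradoxus and no strain effects shared between genes, so the test does not cover these. Its recovery of changed genes and its false calls are not given here, so nothing is read from it. Replicates are strains, so the error behind each p-value mixes strain, culture and library. In the species comparison most of that error comes from the S. cerevisiae strains, so the spread among S. paradoxus strains is hardly measured. Members, lists and classes were chosen with earlier results of these data known. Values of N17 and N44, and the lowest, median and highest S. cerevisiae values, are given for members called, regulators, paralog pairs and the 3 members with the largest and the 3 with the smallest SD. Alternatives covered the pseudocount, filters, normalisation, moderation, covariates and leaving out each strain; medians over genes were added after the data were seen.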

Additional observations from a re-analysis of the deposited data

Results flagged for a closer look

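Each member and 2 strain summaries were searched for a strain lying well apart, among the 6 S. cerevisiae strains or the 4 non-wild ones. Of 54 such sets 8 stood out, where a chance of 1 in 20 per set gives about 2.7. The sets overlap, because the 4 non-wild strains are among the 6, and ERG26 and ERG3 were each counted in both. Setting 8 against 2.7 is therefore no test. ERG26 in BC187, at 358 FPKM, stood out in both sets. ERG3 in DBVPG6040, at 463 FPKM, did so in both sets too. ARE2 in BC187, at 253 FPKM, was apart from the other 5 S. cerevisiae strains. Among the non-wild strains alone, YJM145 was apart with 11.7 FPKM in BTS1 and 238 FPKM in NCP1. The late minus early difference of DBVPG1788, 0.32 on the log2 scale, was apart from the other S. cerevisiae strains, whose lowest was 0.54 in DBVPG6040. What sets these strains apart was not tested.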

How the results depend on the processing

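No paired analysis was possible because replicate numbers here only count strains in accession order and pair no samples. Over 13 results and 211 combinations of result and setting, 157 kept their direction and side of the threshold or, for counts and untested values, stayed close, and 54 did not. Some of the 157 were fixed in advance. The filters and eBayes without a trend cannot change the early and late medians, and median centring cannot change the late minus early gap. The filters also cannot change which members lie outside the range in S. mikatae. The tally is therefore no measure of robustness. No called value changed sign; the late median, which was not tested, did. The pseudocount, the filters on low values and eBayes without a trend kept all 4 member calls. The count of members called was 2 after median centring, 1 after quantile normalisation, 2 with wild as a covariate, 0 among wild strains only, and 0 (without N17) to 4 when 1 strain was left out; it was 3 without Y9 or N44, and 2 without YPS606, BC187 or YJM145. Without BC187 these were ERG28 and ERG29, and without N44 they were ERG25 and ERG29 higher and ECM22 lower. All genes called, 1022, became 265 with S. mikatae added, 630 after median centring, 656 after quantile normalisation, 411 with wild as a covariate and 188 among wild strains only, and ranged from 434 (without N17; 639 without N44) to 1180 (without DBVPG6040). The early median of −0.28 was −0.62 after median centring, −0.58 after quantile normalisation and −0.34 to −0.037 leaving out 1 strain. The late median of 0.088 was −0.25 after median centring, −0.019 after quantile normalisation and 0.016 to 0.28 leaving out 1 strain. Calls in the wider lists, 10, were 4 with S. mikatae added, 6 with wild as a covariate, 1 among wild strains only and 5 to 11 leaving out 1 strain. The late minus early gap of 0.37 was 0.64 with medians over genes, which were chosen after seeing the data, and 0.25 to 0.48 leaving out 1 strain. Wild against non-wild gave 1 gene, no member, without DBVPG1788 and 0 otherwise. Members outside the S. cerevisiae range in S. mikatae numbered 14, and 14 to 17 leaving out 1 strain. Leaving out a strain can only keep or narrow the range, so that count could not fall. Fewer strains or a covariate leave fewer degrees of freedom; the cause of each loss was not tested. With 2 S. paradoxus strains, a fit without 1 of them assumes that the lone strain varies like S. cerevisiae.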
